A study of Ogataea polymorpha NCYC 495 leu1.1 with 8 samples.

Results

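This account concerns 150 genes of the methylotrophic yeast Hansenula polymorpha (Pichia angusta) whose response to methanol differed most between independent cultures, of 5999 genes with a probe on the array. They were chosen by their measured values. For each gene the log2 ratio of the methanol over the glucose signal was taken per culture, and genes were ranked by the standard deviation (SD) of that ratio over the 4 cultures. Only genes with a log2 signal of at least 8 and a mean ratio within 9.99-fold in either direction were ranked. The signal was the mean over both channels of all 8 arrays, so a gene that was dim in some cultures could pass. The selection also left out 9 genes by name, which left 4606 genes, and the 150 with the largest SD are called members below. The SD, the ratio of each culture and the mean ratio of a member are therefore a description of what was selected and carry no test.

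The methanol samples were cells transferred to methanol as sole carbon source for 2 hours, inoculated at an OD of 0.2 at 37 °C. The glucose samples were the cells extensively precultivated on glucose to an OD of 2.3, from which the methanol cultures were inoculated. All samples were of 1 strain, NCYC 495 leu1.1, a leucine auxotroph, so that both conditions share this allele. From each of 4 independent cultures the RNA of the methanol and the glucose sample was hybridised together on 2 arrays, once with methanol in the dye Cy5 and once with glucose in Cy5, which gives 8 arrays.

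Transfer from glucose to methanol takes a yeast cell from a carbon source that feeds glycolysis at its first step to one oxidised in the peroxisome. There methanol becomes formaldehyde, which is either oxidised further to carbon dioxide or assimilated through dihydroxyacetone and pentose phosphates. The first enzyme of assimilation is also peroxisomal. Glucose represses genes for other carbon sources in many yeasts. Many genes of carbon, nitrogen and phosphate supply, of stress protection and of the cell wall are also known to follow the growth phase of a batch culture. Genes of these kinds can be read in each culture of such an experiment separately, since here both conditions of a culture were measured on the same arrays.

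As a check of the labels, formate dehydrogenase (Hp16g114), an enzyme of methanol oxidation that is not a member, was high on methanol in all cultures, and its log2 methanol over glucose ratio was 8.05, 7.97, 7.76 and 7.52 in cultures 1 to 4. In a single channel, 90.6% to 98.3% of the spots of gene probes gave a signal well above background, and 0 to 44 spots per array were left out as outliers. Across the 5999 genes, which are not independent replicates, the ratios of culture 1 correlated with those of the other cultures with r of 0.894 to 0.934, against 0.968 to 0.978 among cultures 2, 3 and 4. Culture 1 thus stood apart from the others over the whole array, and the values below are given per culture for this reason. All 150 members were well above background in both channels on all 8 arrays.

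The SD of the members ran from 0.79 to 3.18 with a median of 0.98, against a median of 0.22 in the 4456 ranked genes that are not members. Only 4 members had an SD of at least 2, 61 lay between 1 and 2, and 85 were below 1. Just inside the limit stood Hp47g847, Hp15g1005 and Hp51r2125 with an SD of 0.797, 0.795 and 0.794, and just outside it Hp37g208, Hp15g739 and Hp8g288 with 0.794, 0.794 and 0.793, so the limit falls in a continuous range. The 9 genes left out by name all had an SD large enough to be kept, between 0.899 and 1.64. They are 7 glycolytic genes, phosphoenolpyruvate carboxykinase (Hp5g547) and HpPMP20 (Hp47g296), the gene of a peroxisomal peroxiredoxin.

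In 136 of the 150 members culture 1 was farthest from the mean of the 4 cultures, against 55.6% of the ranked genes that are not members. Culture 4 was farthest in 9 members, culture 3 in 3 and culture 2 in 2. Culture 1 had the lowest ratio in 86 members and the highest in 58, against 37.8% and 37.9% of the other ranked genes. The ratio kept the same sign in all 4 cultures in 75 members (57 negative, 18 positive), against 80.3% of all genes, and in the other 75 it was positive in some cultures and negative in others. Culture 1 alone was negative in 30 of these and alone positive in 14. In 13 further members cultures 1 and 2 were negative and cultures 3 and 4 positive, and in 4 the reverse was seen. A principal component analysis of the members' deviations gave a first component with 88.8% of the variance, in which culture 1 had a weight of 0.83 against -0.06, -0.30 and -0.47 for cultures 2, 3 and 4. In the ranked genes that are not members the first component held 73.4% and its weights were 0.83, -0.07, -0.28 and -0.48, so the direction that dominates the members is also the leading one in the other genes.

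The call of a gene as up- or downregulated is tied to the same contrast that chose the members, and nothing is read from it. With limma, a fold change over 2 or under 0.5, an adjusted p under 0.05 and an average log2 signal (A-value) of at least 6, 20 members were called up and 54 down. Of all 5999 genes 19.1% were called up and 21.4% down. The count of members called up was 34 without culture 1, and 14, 18 and 19 without culture 3, 2 or 4. The methanol and glucose levels of the 4 cultures did not overlap in 69 of the 150 members (46%), against 69.4% of all genes.

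**Figure D1:**
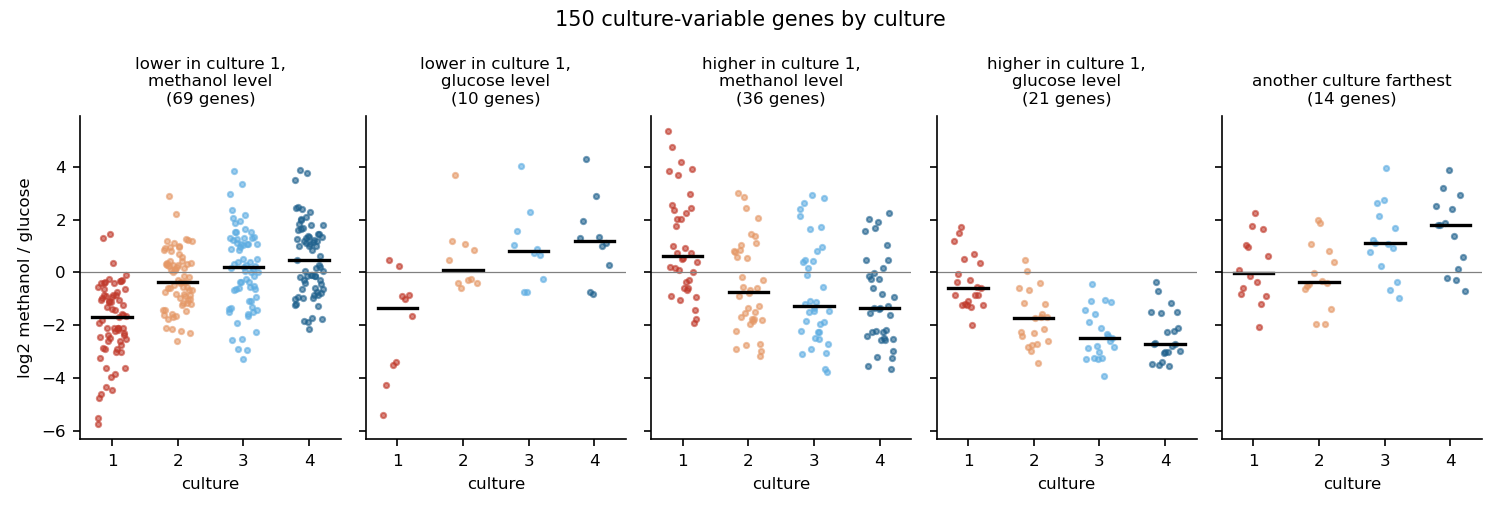
Log2 methanol over glucose ratio (y axis) of each of the 150 members in cultures 1 to 4 (x axis), 1 point per gene and culture and a bar at the median. The panels split the members by whether culture 1 was farthest from the mean, on which side, and in which condition its level departed more from the other cultures (69, 10, 36, 21 and 14 genes). In the first panel the median is -1.70 in culture 1, and in the third it is 0.63.

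To see in which condition culture 1 departed, the level of each gene was taken per channel, as log2 signal minus the median gene probe of that channel and array. A level therefore compares 1 gene between cultures and not 1 gene with another. The RNA is from whole cultures, in which fewer cells expressing a gene and less RNA per cell cannot be told apart. Of the 136 members in which culture 1 was farthest, 69 had a lower ratio there with the larger departure in the methanol level, and 36 a higher ratio with the larger departure in the methanol level. In 21 the ratio was higher in culture 1 and the glucose level departed more, and in 10 the ratio was lower and the glucose level departed more. The 2 levels of culture 1 moved in opposite directions in 106 of these 136 members and in the same direction in 30. Selection by the SD of the ratio favours levels that move in opposite directions. The counts of this paragraph are not given for the other ranked genes, and they only describe what was selected.

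The annotation of the study used here gives a description for 51 members, and 44 of these have a mean ratio above 0. Of the 99 members without such a description 82 have a mean ratio below 0. The copy of the study's annotation read here was shortened and holds mainly genes that were higher on methanol, so a gene called without description here may have one in the full annotation. The named functions below are therefore not a balanced sample of the members. Most descriptions name the best match in another organism, and a role given from Saccharomyces cerevisiae or Schizosaccharomyces pombe is known for that organism.

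The largest SD of all belonged to Hp39g29, which has no description here. Its log2 ratio was -5.40 in culture 1, which is 42.3-fold lower on methanol, and 0.45, 1.03 and 1.29 in cultures 2, 3 and 4. Its methanol level was -1.83, -4.21, -3.17 and -3.36 in cultures 1 to 4, and its glucose level was 3.53, -4.69, -4.24 and -4.71. The gene was thus bright in the glucose sample of culture 1 and much lower in the other 7 samples, and the glucose level of culture 1 exceeded the mean of the other cultures by 8.07 log2 units. In its 4 methanol samples culture 1 was also the highest. In cultures 2 to 4 both levels lay far below the median gene. The gene thus passed the brightness limit through culture 1, and the ratios of cultures 2 to 4 compare dim signals.

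Hp12g59 followed with an SD of 2.94. Its description is 3-isopropylmalate dehydratase, an enzyme of leucine biosynthesis. Its log2 ratio was -4.29 in culture 1, against 1.18, 1.58 and 1.93 in cultures 2, 3 and 4. On methanol its level was -0.07, 1.39, 1.58 and 1.91 and on glucose 4.17, 0.17, -0.04 and -0.08. The glucose sample of culture 1 was again the highest of all 8, and here the methanol sample of the same culture was the lowest of the 4 on methanol.

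Another member whose glucose level set culture 1 apart was Hp42g42, described as a putative allantoate permease, a transporter of a purine breakdown product that serves as nitrogen source. Its log2 ratio was 0.47 in culture 1 and 3.67, 4.03 and 4.27 in cultures 2, 3 and 4. Its methanol level lay between 5.35 and 6.01 in all cultures, while the glucose level was 4.84 in culture 1 and 2.04, 1.94 and 1.47 in the others. High levels on methanol were thus shared by the 4 cultures, and only the glucose sample of culture 1 was close to them. Hp12g159, with no description here, had ratios of -3.52, -0.40, -0.76 and -0.75 and a glucose level of 4.22 in culture 1, against 1.87 to 2.39 in cultures 2 to 4. In the remaining genes of this group the glucose level of culture 1 stood apart by less. They include Hp18g202, a match to the yeast protein YIL057c, with glucose levels of 4.80, 4.46, 3.92 and 3.14, which form a range over the cultures and no single departure.

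**Figure D2:**
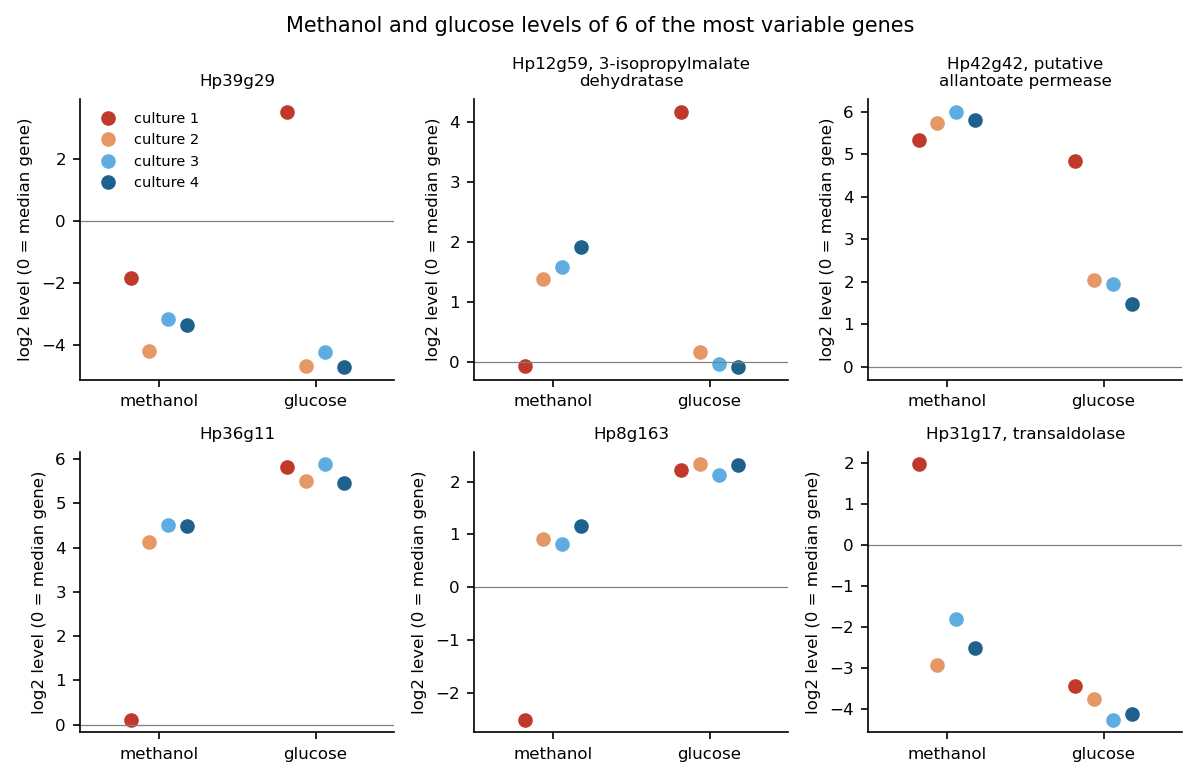
Log2 level relative to the median gene probe (y axis) of 6 of the most variable members in the methanol (left) and glucose (right) samples of cultures 1 to 4, 1 point per culture. In the upper row the glucose sample of culture 1 stands apart, at 3.53 in Hp39g29, and in the lower row its methanol sample does, at 0.11 in Hp36g11 and 1.96 in Hp31g17.

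In the largest group, of 69 members, the ratio was lower in culture 1 and the larger departure was that of the methanol level. Their median ratio was -1.70 in culture 1, and their median methanol level in culture 1 lay 1.59 log2 units below the other cultures. Hp36g11 and Hp36g8, a pair of genes with neighbouring identifiers and no description here, were the most extreme. The ratios of Hp36g11 were -5.76, -1.41, -1.39 and -1.02, and those of Hp36g8 were -5.50, -1.62, -1.49 and -1.24, so the order of the cultures was the same in both genes. On methanol Hp36g11 was at 0.11 in culture 1 and at 4.13, 4.52 and 4.49 in cultures 2, 3 and 4, while on glucose it lay between 5.46 and 5.88. All 4 cultures thus had less of this transcript on methanol, and culture 1 by far the least. Hp8g163 had the same form, with a methanol level of -2.5 in culture 1 against 0.82 to 1.16 in the others and glucose levels of 2.13 to 2.32. In Hp15g752 the methanol level was 0.55, 3.16, 3.25 and 4.31 and the ratio -4.60, -2.12, -2.57 and -0.94.

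Other genes of this group changed sign between cultures. Hp51r177 had ratios of -1.92, 0.90, 1.30 and 2.43, and Hp25g307 had -2.44, 0.31, 0.87 and 1.28. Their means of 0.68 and 0.01 stand for cultures with ratios of either sign, and in both genes it was culture 1 that was below 0. Hp42g129, matched to an S. pombe gene described as isocitrate lyase, had ratios of -1.04, 1.19, 2.37 and 1.59. It is not the gene that the study lists as isocitrate lyase, Hp29g305, which is no member and had ratios of 4.69, 5.09, 4.89 and 4.72. Hp32g507, matched to an S. pombe protein of unknown function, had -0.56, 0.84, 2.97 and 3.51, with methanol levels of 4.26, 5.40, 6.29 and 6.63 and glucose levels of 4.77, 4.52, 3.28 and 3.07. Both conditions thus contributed there, in opposite directions.

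Genes of central carbon metabolism were among the members. Of 14 genes listed for glycolysis and pyruvate dehydrogenase 6 were members, 7 were among the genes left out by name, and hexokinase (Hp25g374) had a mean ratio of -3.41, beyond the limit. Every ranked gene of this list was thus a member, against 3.26% of all ranked genes, which is the share the selection fixes. The list is that of the study, drawn up on these samples, and no test was made. In all 6 members culture 1 was the lowest, with a median ratio of -2.11 there, against -0.27 over cultures 2 to 4.

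Pyruvate kinase (Hp39g227), which makes pyruvate in the last step of glycolysis, varied most of the 6, with an SD of 1.68. Its log2 ratio was -3.24, -0.74, 0.18 and 0.46 in cultures 1 to 4, and its level was 3.37, 5.30, 6.21 and 6.0 on methanol and 6.56, 6.0, 6.0 and 5.48 on glucose. Culture 1 had 9.42-fold less pyruvate kinase transcript on methanol, whereas cultures 3 and 4 had ratios slightly above 0. Triosephosphate isomerase (Hp16g222), which interconverts the 2 triose phosphates, had ratios of -2.22, -0.96, -0.25 and -0.09. Glyceraldehyde-3-phosphate dehydrogenase (Hp25g306), the oxidative step, had -2.10, -0.56, -0.38 and -0.14, and 3 of its spots were saturated. For 3-phosphoglycerate kinase (Hp26g207), which forms ATP in the next step, the ratios were -2.11, -0.40, 0.03 and -0.12. In these 3 enzymes only culture 1 had a ratio below -1.

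Pyruvate dehydrogenase, which carries pyruvate into the mitochondrial citric acid cycle, was represented by both listed subunits. The alpha subunit (Hp6g262) had ratios of -1.63, -0.68, -0.13 and 0.22, and the beta subunit (Hp37g184) -2.10, -1.03, -0.51 and -0.29. The order of the 4 cultures was the same in both subunits. The spread was larger on methanol than on glucose in each of the 6 genes, with SDs of 0.64 to 1.29 on methanol and 0.19 to 0.45 on glucose. None of the 6 was called, and the mean ratios lay between -0.98 and -0.56.

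**Figure D3:**
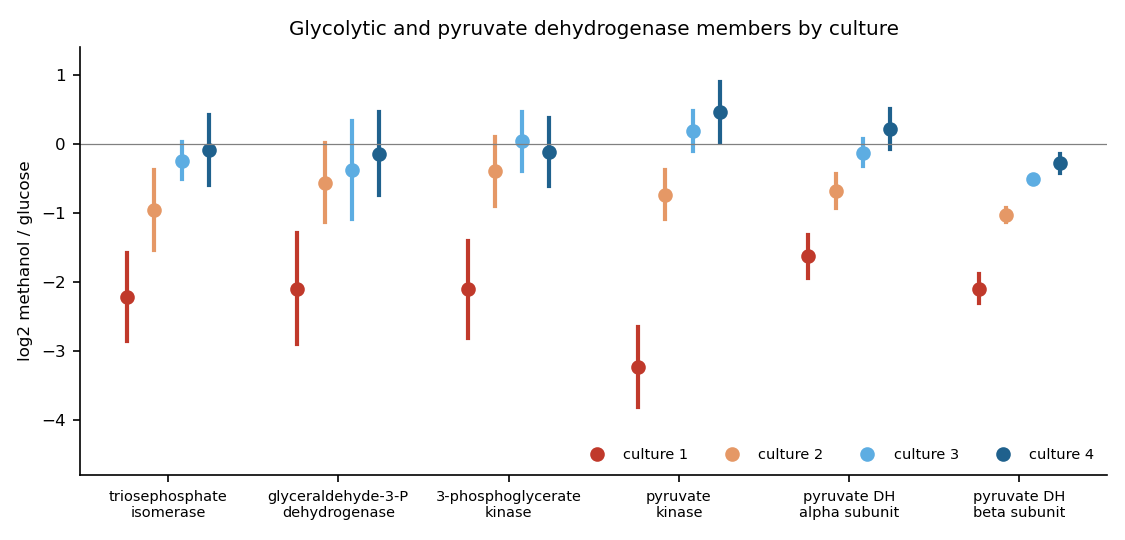
Log2 methanol over glucose ratio (y axis) of the 6 glycolytic and pyruvate dehydrogenase members (x axis) in each culture. Points are the mean of the 2 arrays of a culture and vertical lines join the values of its 2 arrays with exchanged dyes. Culture 1 is lowest in all 6 genes, from -1.63 in the alpha subunit of pyruvate dehydrogenase to -3.24 in pyruvate kinase.

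A regulator of glycolysis was also a member. Hp8g189 matches PFK27, a 6-phosphofructo-2-kinase that makes fructose 2,6-bisphosphate, an activator of phosphofructokinase. Its ratios were -0.40, 0.36, 2.05 and 2.48, with methanol levels of 2.75, 3.21, 4.01 and 4.38 and glucose levels of 3.11, 2.81, 1.92 and 1.84. The 2 conditions diverged in cultures 3 and 4 and nearly coincided in cultures 1 and 2. Of the 3 genes listed for gluconeogenesis none was a member: phosphoenolpyruvate carboxykinase was left out by name, and pyruvate carboxylase (Hp18g102) and fructose 1,6-bisphosphatase (Hp46g88) had SDs of 0.12 and 0.26.

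Of 7 listed genes of methanol metabolism none was a member. Of these 4 had a mean ratio beyond the limit, among them alcohol oxidase (Hp19g106), which oxidises methanol to formaldehyde. Its ratios of 5.10, 1.86, 4.32 and 2.45 (SD 1.53) differed as much between cultures as those of the members. So did those of dihydroxyacetone synthase (Hp27g356), with 5.32, 2.94, 4.10 and 3.26 (SD 1.06). Catalase and formate dehydrogenase, also beyond the limit, had SDs of 0.40 and 0.24. The 3 that were ranked, dihydroxyacetone kinase, formaldehyde dehydrogenase and S-formyl glutathione hydrolase, had SDs of 0.20 to 0.48. The ranked genes of the lists for peroxins (24 genes), autophagy (26 genes), fatty acid beta-oxidation (4 genes) and named transcription factors (1 gene) also held no member. The beta-oxidation list has 14 genes, and those not ranked had a mean ratio beyond the limit. Their SDs ran from 0.09 in YAT1 (Hp39g121) to 1.07 in fatty-acyl coenzyme A oxidase (Hp33g132), so absence from the members does not show a steady response.

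In 36 members the ratio was higher in culture 1 and the methanol level departed more. Their median ratio was 0.63 in culture 1. Hp31g17, matched to transaldolase, an enzyme of the non-oxidative pentose phosphate pathway, stood first with an SD of 1.99. Its log2 ratio was 5.35, 0.81, 2.42 and 1.57, and its methanol level was 1.96 in culture 1 against -2.92, -1.81 and -2.5 in cultures 2, 3 and 4. Its glucose levels lay between -4.26 and -3.44, so the transcript was 40.9-fold higher on methanol in culture 1 from a low glucose level that all cultures shared. In cultures 2 to 4 both levels lay below the median gene, so its mean brightness rests largely on the methanol sample of culture 1.

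Hp11g24, matched to an NADP-dependent alcohol dehydrogenase of S. cerevisiae that reduces aldehydes, had ratios of 3.82, 0.77, 2.12 and 0.45. As for transaldolase, culture 1 was highest and culture 3 next. Hp15g431, matched to the mitochondrial adenylate kinase ADK2, had 4.73, 3.01, 2.63 and 2.02. In all 3 genes the ratio was positive in every culture.

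Genes matched to transporters of nutrients and to an enzyme that activates acetate were found in this group as well. Hp6g8, matched to the phosphate transporter PHO84, had ratios of 2.01, -0.19, 0.16 and -0.01, with methanol levels of 0.44, -1.41, -1.29 and -1.19 and glucose levels of -1.62 to -1.24. Only the methanol sample of culture 1 departed, and the mean ratio was -0.01 without that culture. Hp26g219, matched to the amino acid transporter YBR132c, had 2.54, 0.59, 0.38 and -0.16. Hp12g426, matched to acetyl-CoA synthetase, which activates acetate, had 1.77, 1.02, -0.10 and -0.59, with methanol levels of 6.0, 5.35, 4.93 and 4.12.

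Further members of this group are described by matches to a phospholipase, a glucanase, a mannosidase and a protein of ribosome assembly. Hp12g117, a match to the phospholipase PLB1, had ratios of 3.68, 2.86, 1.65 and 1.67. Hp5g148, a match to the cell wall enzyme endo-1,3-beta-glucanase, had 2.97, 1.36, 1.70 and 1.03, and Hp6g267, a probable alpha-mannosidase, had 3.91, 2.07, 2.83 and 2.24. Culture 1 was the highest in each of these, and all 4 cultures were above 0. Hp31g167, matched to CGR1, a protein of ribosome assembly in S. cerevisiae, had 2.44, 1.12, 0.96 and 0.45. Other members of the group with a match only to yeast open reading frames were Hp25g166, Hp26g175, Hp15g253 and Hp47g788, with culture 1 between 2.02 and 4.18.

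Of the 5 members described as transporters, culture 1 was lowest in 2 and highest in 2. Hp18g30, matched to JEN1, the carrier of lactate and pyruvate in S. cerevisiae, had ratios of -0.35, 0.80, 1.28 and 2.39. Its methanol level was 2.70, 4.02, 4.22 and 4.62 and its glucose level 3.01, 3.18, 2.91 and 2.18, so culture 1 was the only one without a higher level on methanol. Of the 51 ranked genes whose description names a transporter 5 were members, and of the 65 described as oxidoreductases 6 were. These shares of 9.80% and 9.23% are of described genes only, which are mostly genes with a higher level on methanol. The share of members over all described ranked genes is not given here. Over the lists drawn from words of the descriptions the share ran from 0 to 16.7%. It was 0 for transcription regulators (53 ranked genes), proteases and proteasome (42), ribosome and translation (20), sugar and polysaccharide enzymes (17) and lipid metabolism (13). It was also 0 for metal and vitamin genes (8) and for meiosis, mating and cell cycle (7). The share of 16.7% was reached by heat shock proteins and chaperones (12) and by cell wall and cell surface (12), with 2 members each.

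The oxidoreductases were lowest in culture 1 with the exception of Hp11g24. Hp27g514, a probable short chain dehydrogenase, had ratios of -0.98, 0.29, 1.21 and 1.84, and Hp42g174, with similarity to flavin-containing monooxygenases, had -0.76, 0.56, 1.06 and 1.22. The remaining members counted here are those already given, the subunits of pyruvate dehydrogenase and glyceraldehyde-3-phosphate dehydrogenase. Nitrogen metabolism was represented by Hp28g94, a putative acetamidase, with -0.85, 0.41, 1.52 and 1.63.

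Histone H2A (Hp5g529), which packages DNA, had ratios of -0.86, 1.00, 1.28 and 1.09. Its methanol levels were 0.53, 2.29, 2.70 and 2.59, and its glucose levels lay between 1.25 and 1.44. The gene with the preceding identifier, Hp5g528, which has no description here, had -2.60, -0.50, -0.36 and -0.39. In both genes culture 1 was the single low value, at different mean levels of the ratio. Hp26g179, matched to a chitinase, an enzyme that opens the cell wall between mother and daughter cells, had -0.30, 1.21, 1.32 and 1.46. Hp24g691, matched to 4-nitrophenylphosphatase, had -0.86, 0.43, 1.08 and 1.13. In the histone H2A, chitinase and phosphatase genes culture 1 alone lay below 0.

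Cultures 1 and 2 did not overlap cultures 3 and 4 in 119 members, against 50.5% of the ranked genes that are not members, and the following 4 are examples. Hp19g70, matched to the small heat shock protein HSP26, had ratios of -0.84, -0.52, 1.24 and 1.78. Its levels were 4.33, 3.64, 3.85 and 5.21 on methanol and 5.12, 4.12, 2.58 and 3.37 on glucose, and it is one of the 9 members in which culture 4 was farthest. Hp15g1019, matched to a regulatory factor of ATP synthase, had 1.03, 1.05, 2.62 and 3.21, and Hp28g100, matched to a protein kinase, had -0.37, -0.33, 1.08 and 1.36. In both, cultures 1 and 2 nearly coincided, and the glucose levels were lower in cultures 3 and 4. Hp47g891, matched to a stress-inducible protein of Fusarium, had 0.35, 0.69, 2.16 and 2.29.

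HSP78 (Hp44g749), a mitochondrial chaperone that rescues aggregated proteins, had ratios of 1.64, 0.82, 1.68 and 2.92, with culture 4 apart. Its glucose levels were 1.56, 1.11, 0.66 and -0.39, and its methanol levels were 3.25, 1.97, 2.37 and 2.58. Hp15g500, matched to the yeast protein YPR009w, varied mainly on glucose: its methanol levels lay between 0.74 and 1.18, and its glucose levels were 0.62, 1.48, 0.03 and -1.38. Its SD on methanol was 0.19, the smallest of the 150 members. Culture 3 was farthest in Hp44g446, matched to the S. pombe transporter Liz1, with 2.23, 1.86, 3.95 and 2.40.

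In 21 members the ratio was higher in culture 1 and the glucose level departed more. None of these has a description here. Hp9g308 had ratios of 1.17, -0.59, -1.42 and -1.5, with methanol levels of -0.02, -1.23, -1.39 and -0.90 and glucose levels of -1.23, -0.69, 0.00 and 0.55. Culture 1 was thus highest on methanol and lowest on glucose. The median glucose level of culture 1 in these 21 genes lay 1.14 log2 units below the other cultures, and the median methanol level 0.74 above.

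Over all members the spread over cultures was larger in the methanol than in the glucose level in 106 of 150, against 62.4% of the ranked genes that are not members. It was more than 2 times as large on methanol in 78 members and more than 2 times as large on glucose in 15. The median SD of the level was 0.72 on methanol and 0.37 on glucose in the members, and 0.21 on methanol and 0.17 on glucose in the other ranked genes. Because the ratio of the same signals chose the members, these counts are a description. Without culture 1 the spread was larger on methanol in 85 members.

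**Figure D4:**
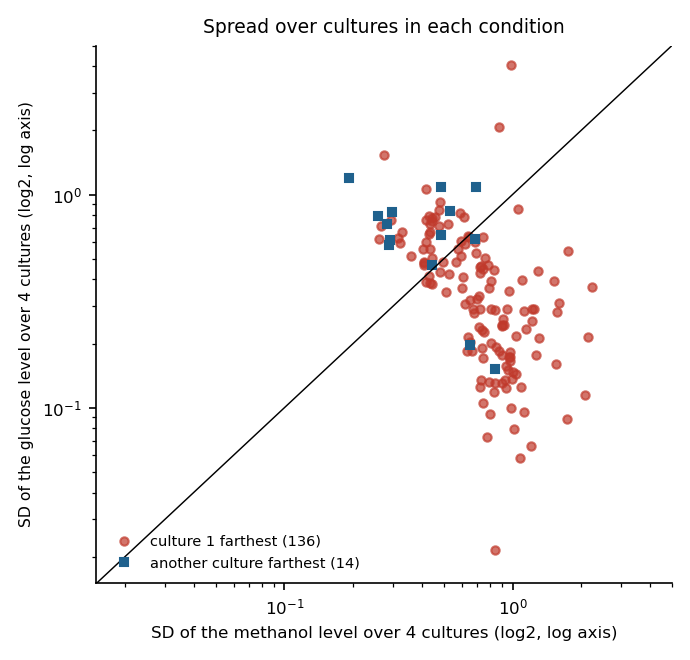
SD over the 4 cultures of the log2 methanol level (x axis) and of the log2 glucose level (y axis) of the 150 members, both on log axes, with a line where they are equal. Most points lie below the line (106 genes), and the members in which another culture than culture 1 was farthest (14 squares) lie mainly above it.

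The error of labelling and hybridisation could be set against this spread, since the RNA of each culture was measured on 2 arrays. Both arrays of a culture held the same RNA isolates, so differences that arose in sampling or RNA isolation are not part of this error. The difference between the 2 arrays, divided by 2 and with its mean over the cultures removed, had an SD of 0.05 at the median of the members and 0.25 at most, against 0.04 at the median of the other ranked genes. The SD over cultures was more than 3 times this value in all 150 members, and 18.8 times at the median. Of the ranked genes that are not members 77% passed the same limit. The 4 cultures came in the same order on the arrays of both dye orientations in 124 members, against 50.5% of the other ranked genes, and the same culture was farthest in 145, against 72.5%. The selection for a large SD bears on these shares, and nothing is read from them. Across members, r between both arrays of 1 culture was 0.978 to 0.990, while culture 1 correlated with the others with r of 0.283 to 0.527 and cultures 2 to 4 among themselves with 0.864 to 0.955. The points share probes and arrays, and no p is attached.

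The effect of the dye is a contrast that the selection did not use, and it was tested. The ratio with methanol in Cy5 minus the ratio with glucose in Cy5 was taken within each culture (n = 4) and fitted with limma over 5999 genes. At an adjusted p under 0.05 the ratio was larger with methanol in Cy5 in 29 members, against 15.2% of all genes, and smaller in 25, against 21.1%. Together 54 members (36.0%) depended on the dye, near the share of 36.3% in all genes. The count was 25, 30 and 30 without culture 2, 3 or 4 and 56 without culture 1. The absolute difference had a median of 0.12 in the members and of 0.12 in the other ranked genes.

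Several of the glycolytic members depended on the dye. The ratio of 3-phosphoglycerate kinase (Hp26g207) averaged -0.12 with methanol in Cy5 and -1.18 with glucose in Cy5, a difference of 1.06 (limma adjusted p = 0.0029). With methanol in Cy5 its ratios in cultures 1 to 4 were -1.41, 0.10, 0.46 and 0.37, and with glucose in Cy5 they were -2.81, -0.90, -0.39 and -0.61. Triosephosphate isomerase differed by 0.99 (limma adjusted p = 0.0057), pyruvate kinase by 0.83 (limma adjusted p = 0.0053) and the alpha subunit of pyruvate dehydrogenase by 0.52 (limma adjusted p = 0.0035). For glyceraldehyde-3-phosphate dehydrogenase (Hp25g306) the measured difference was 1.34 (limma adjusted p = 0.0018), but it is the only member with saturated spots, 3 in number, and a saturated spot gives only a lower bound of its signal, so the size of this difference is not exact. For the beta subunit of pyruvate dehydrogenase the difference was 0.20 and was not called (limma adjusted p = 0.12). The sign of the ratio in cultures 2 to 4 of these enzymes thus differed between the dye orientations in part, while culture 1 was negative in both orientations in all 6. A dye difference that is the same in every culture drops out of the comparison between cultures.

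**Figure D5:**
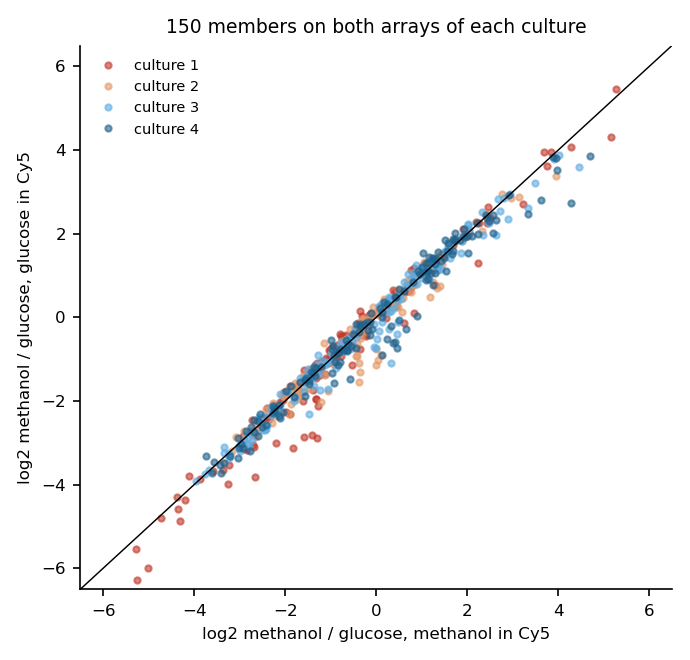
Log2 methanol over glucose ratio of the 150 members in each culture on the array with methanol in Cy5 (x axis) and on the array with glucose in Cy5 (y axis), 1 point per gene and culture, with a line of equality. Points run along the line from below -5 to above 5, with r of 0.978 to 0.990 within a culture, and 3-phosphoglycerate kinase lies below it in every culture.

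All arrays were on 1 slide, where cultures 1 and 2 shared a row of arrays and cultures 3 and 4 the other row. The ratios of cultures 1 and 2 lay wholly below those of cultures 3 and 4 in 71 members and wholly above them in 48, and this split cannot be told apart from the row. Within the rows, cultures 1 and 2 differed by 1.35 log2 units and cultures 3 and 4 by 0.37 at the median of the members, against 0.29 and 0.15 in the other ranked genes. Cultures 2 and 3, from different rows, differed by 0.56 in the members and 0.20 in the other ranked genes. The ratios that chose the members enter these differences, and the part of the row was not tested. Splits by the position within a row, with cultures 1 and 3 apart from 2 and 4, were found in 28 members, against 34.2% of the other ranked genes.

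Members with identifiers that share a prefix and stand within 3 numbers of each other formed 7 pairs. Hp27g86a and Hp27g86b had nearly equal ratios, -3.02, -1.24, -1.67 and -0.99 in the first and -2.89, -1.17, -1.57 and -0.87 in the second. Whether 1 transcript binds both probes was not tested. Hp44g748 had -0.84, -2.27, -3.27 and -3.48, opposite in sign to HSP78 (Hp44g749) beside it. In the pairs of Hp25g307 with glyceraldehyde-3-phosphate dehydrogenase (Hp25g306) and of Hp26g209 with 3-phosphoglycerate kinase (Hp26g207) culture 1 was the lowest in both genes.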

How the data were processed

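RNA of 4 cultures was measured on 8 two-channel Agilent arrays. Agilent Feature Extraction turned each scan into a processed intensity for every spot in both dyes, which the authors deposited. It had applied a spatial detrend and dye normalization, with no background subtraction. The deposited log10 ratios in a further table equalled those of Feature Extraction once moved by 5 rows against their identifiers, and served as an alternative in that form. Processed signals were turned into log2 ratios of methanol over glucose. Outlier spots were dropped, and ratios were averaged first over both spots of an array and then over both arrays of the same culture (n = 4 cultures). A-values are mean log2 signals of both channels. Limma 3.58.1 in R 4.3.3 fitted an intercept per gene, with Benjamini-Hochberg adjustment over 5999 genes, and was tested on simulated data. Values were tabulated in Python 3.11.15 (pandas 2.3.3, numpy 2.4.6) and drawn in matplotlib 3.10.9.

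The methods state that the 4 glucose cultures served both for RNA and as inoculum of the methanol cultures. The labels give the methanol and glucose isolates on an array the same number, which was read as the same culture, and the ratio within a culture holds this pairing. Deviations of both channels of a culture correlated with r of 0.247 to 0.452, but they come from the same arrays.

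The genes named by rule (33) are members in the study's lists, the 15 with the largest SD, up to 3 per keyword list of the annotation, and 3 at each end of the first component. All further annotated members were added to this set after their values were seen. The set then held 60 members, of which not all are given above. Hp5g528, Hp27g86a, Hp27g86b, Hp44g748 and Hp26g209 stand outside it and were also named after their values were seen. The members and lists were chosen with earlier results of these data known. None of the 150 identifiers occurs in the RefSeq gene table used (assembly Hanpo2), so no positions or sequences are given. Arrays have no read depth, and precision is limited by their number. Alternatives were other background corrections, normalizations, spot averages, dye orientations, moderations, thresholds, ranking measures and channel scalings, a dye term, no pairing, and each culture left out.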

Additional observations from a re-analysis of the deposited data

Results flagged for a closer look

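Among the 60 members of the set picked for naming, 10 had 1 culture far from the other 3. The gap to the nearest culture exceeded Dixon's critical share of the whole range for 4 values. Chance flags about 1 in 20 groups of 4 that were not selected. These genes were selected by the SD of the same 4 values, so that share does not apply to them, and the flags are a description and no test. By the same measure 16 of the 150 members were flagged, and 6.10% of the ranked genes that are not members. In all 10 flagged genes of the named set the distant value was that of culture 1. On the low side these were Hp36g11 with a log2 ratio of -5.76, Hp36g8 with -5.50, Hp39g29 with -5.40, Hp8g163 with -4.77, Hp12g59 (3-isopropylmalate dehydratase) with -4.29 and Hp12g159 with -3.52. Histone H2A (Hp5g529) with -0.86, the chitinase match Hp26g179 with -0.30 and the allantoate permease match Hp42g42 with 0.47 were also low in culture 1. The phosphate transporter match Hp6g8 was the single case on the high side, with 2.01.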

How the results depend on the processing

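The list of members depended most on culture 1: 61 of the 150 members stayed among the 150 largest SDs without it, and 122 to 140 without another culture (range over the 4 left out, 61 to 140). With the median absolute deviation in place of the SD 79 stayed, since that measure gives less weight to 1 distant culture. Under the other processing choices 105 to 150 stayed. Treat against a 2-fold change called 9 members up and 21 down, in place of 20 and 54. When 1 culture was omitted at a time, 14 to 34 members were called up and 42 to 53 down, culture 1 was farthest in 114 to 143, the dye difference was called in 25 to 56, and the spread was larger on methanol in 85 to 108. With channels fitted without the pairing (no replicate block) 23 members were called up and 53 down, and of the calls with the pairing 20 up and 52 down remained. A further 3 were called up and 1 down, and the pairing changed no other call. For the 60 genes of the named set, 780 alternative values of the mean ratio moved by less than the SD over cultures, and none of a called gene changed sign. That SD is the value that chose the members, and leaving out 1 of 4 cultures cannot move a mean by as much. The comparison with the SD is therefore no measure of stability. In 6 genes that were not called the sign of the mean ratio changed in 14 of the alternative values. Of these changes 10 came on leaving out a culture, as for Hp39g29 (-0.66 with all cultures and 0.92 without culture 1). Intensities of arrays have no read depth, and all 150 members were well above background.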
